A study of Danio rerio with 4 samples.

Results

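In zebrafish embryos at the 4-somite stage, 10916 nucleosome-free regions (NFRs) were called in periderm and not in the rest of the embryo, and 1954 of them lay within 1 kb of an NFR called in every library. These 1954 periderm-only flanking regions are described here. They were chosen from the calls themselves. Peaks of all 4 libraries were pooled, and any that shared 1 bp or more were joined, which gave 693918 regions. A GFP-positive-only (periderm-only) region held a peak of both GFP-positive libraries and of neither GFP-negative library, a shared region held a peak of all 4 libraries, and a flanking region was a GFP-positive-only region whose nearest shared region was at most 1 kb away, edge to edge. Of the 693918 regions 1.57% were GFP-positive-only and 5.74% were the reverse, GFP-negative-only. Shared regions numbered 110783.

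The libraries came from Tg(krt4:GFP) embryos of 2 separate incrosses. Every cell sampled, in both groups, came from a GFP-positive embryo carrying the transgene, in which the krt4 promoter drives GFP. At each incross 50000 GFP-positive cells (labelled periderm) and 50000 GFP-negative cells (labelled non-periderm, a mixture of all other cell types) were sorted and profiled, so each group had 2 libraries. Periderm is thus defined here by krt4 promoter activity and by the sort gate. The number of peaks ran from 190059 (GFP-positive replicate 2) to 455867 (GFP-negative replicate 1), with 336052 in GFP-positive replicate 1 and 333588 in GFP-negative replicate 2. The number of reads behind each list was not given in the files.

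Periderm is the outermost epithelial layer of the embryo, formed early as the enveloping layer and rich in keratins and tight junction proteins. In ATAC-seq the Tn5 transposase inserts adapters into DNA that is not wrapped in nucleosomes, and short fragments mark NFRs such as promoters, enhancers and insulators. Promoters tend to be open in most cell types, whereas many enhancers open in a few, and an enhancer may lie beside a promoter or far from any other open region. Positions are those of the deposited lists, read as danRer7 (Zv9) and counted from 1. No genome or annotation of that build was used here, so the regions carry neither genes nor sequence, and none could be called a promoter or an enhancer.

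The labels were checked at 5 elements that the study places around cldne, which encodes a claudin of tight junctions. Both GFP-positive libraries had a peak at all 5, and at 4 of them neither GFP-negative library had one. The study picked these elements as periderm NFRs in the same libraries, so these calls are no independent evidence. It also required a histone mark of active chromatin (H3K27Ac), measured in whole embryos. In its reporter assays embryos injected with constructs of the 5 elements had mosaic GFP in periderm. None of the periderm-only flanking regions lay within 5 kb of these elements (0 regions). The 4 GFP-positive-only regions at cldne were 4719 to 11191 bp from the nearest shared region, and so fell outside the class.

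The strongest flanking regions are given first, as the upper end of the class and not as typical of it. The 8 with the highest lower percentile of fold enrichment over the 2 GFP-positive lists were taken. Fold enrichment is the height of a peak over the constant background that the peak caller set for that library, with no scaling between libraries. None of these 8 regions had a peak in either GFP-negative list, as the choice requires. The strongest lay on chromosome 11 from 19316629 to 19316918, with a fold of 22.4 and 24.8 in GFP-positive replicates 1 and 2. Its shared region, 430 bp away, from 19315964 to 19316198, had a fold of 25.5 and 23.9 in the GFP-positive lists and of 9.48 and 15.5 in GFP-negative replicates 1 and 2. At this place the periderm-only and the shared peak were thus of nearly equal height in periderm, and only the shared one was called outside it.

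The second strongest lay on chromosome 5 from 69422913 to 69423186 (fold 17.3 in GFP-positive replicate 2 and 16.3 in replicate 1), and its shared region was 168 bp away with a fold of 10.7 and 9.83 in the GFP-positive and 6.83 and 6.53 in the GFP-negative lists. Here the periderm-only peak was the higher of the pair in both GFP-positive lists. On chromosome 22 a region from 42131228 to 42131417 (fold 15.8 and 16.9) stood 219 bp from a shared region 770 bp wide, whose fold was 56.1 and 65.1 in the GFP-positive and 53.8 and 66.9 in the GFP-negative lists. In that case a large NFR, nearly even between the groups in fold as deposited, carried a much lower periderm-only neighbour. Ranked by fold among all shared regions, the large NFR stood at percentile 98.0 and 99.0 in the GFP-positive lists. In the GFP-negative lists it stood at 95.8 and 97.1. A second region on chromosome 11, from 19462508 to 19462720 (fold 12.7 and 15.0), was only 62 bp from its shared region, which had a fold of 10.2 and 10.8 in the GFP-positive and of 6.83 and 3.27 in the GFP-negative lists. The GFP-negative replicate 2 peak of that shared region was close to the lowest value of its list, 2.86, so its place among the shared regions rests on a weak call.

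**Figure D1:**
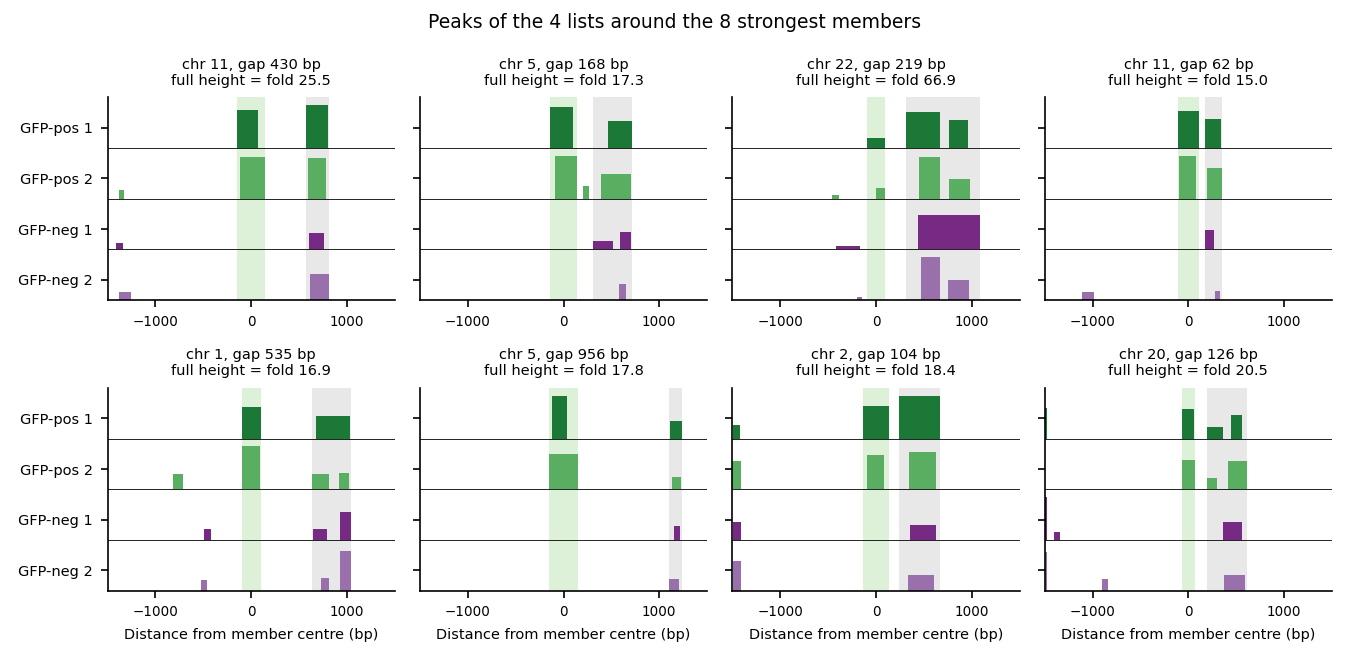
Peaks of the 4 lists around the 8 strongest periderm-only flanking regions (members). The horizontal axis is the distance from the centre of the member in bp, turned so that the shared region is always on the right. Each row is a list, the height of a bar is the fold enrichment of the peak relative to the highest value in that panel (given above it), green shading marks the member and grey shading the shared region. Bars stand in the green area in both GFP-positive rows and in no GFP-negative row, and the gap to the grey area runs from 62 to 956 bp.

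Of the remaining 4, the region on chromosome 1 from 59765155 to 59765355 (fold 12.2 and 16.9, gap 535 bp) had a shared region that was weaker in periderm, with a fold of 8.67 and 6.55 in the GFP-positive and 11.0 and 15.5 in the GFP-negative lists. The region on chromosome 5 from 39323564 to 39323863 (fold 17.8 and 14.5, gap 956 bp) had a weak shared region, with a fold of 7.14 and 5.15 in the GFP-positive and 5.69 and 4.90 in the GFP-negative lists. On chromosome 2, from 29907166 to 29907429 (fold 13.8 and 14.5, gap 104 bp), the shared region had a fold of 18.4 and 15.9 in the GFP-positive and 6.45 and 6.53 in the GFP-negative lists. The region on chromosome 20 from 2614735 to 2614877 (fold 14.3 and 14.0, gap 126 bp) had a shared region with a fold of 11.2 and 13.6 in the GFP-positive and 8.72 and 7.35 in the GFP-negative lists. In 5 of these 8 pairs the periderm-only peak was above the shared one in both GFP-positive lists, and in 7 of them nothing else was called between the pair.

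Most flanking regions were far weaker than these. In GFP-positive replicate 1 their fold ran from 3.06 to 22.4 with a median of 5.61 and quartiles of 4.59 and 7.14. In GFP-positive replicate 2 it ran from 3.28 to 24.8 with a median of 5.15 and quartiles of 4.68 and 6.55. The values of a list are whole multiples of 1 step (0.510 and 0.468 in the 2 lists), and the median was 11 steps in both lists while the lowest call was 6 and 7 steps. Within 2 steps of the lowest call lay 18.3% of the flanking regions in replicate 1 and 20.1% in replicate 2. Of the other GFP-positive-only regions 17.8% and 20.6% did. A sizeable part of both kinds of region thus rests on calls close to the limit of detection. The same share over all peaks of a list was not computed. Among all peaks of the list the median flanking region stood at percentile 52.7 in replicate 1 and 29.8 in replicate 2. The lists hold no read counts, and no counting error was derived for a single region.

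**Figure D2:**
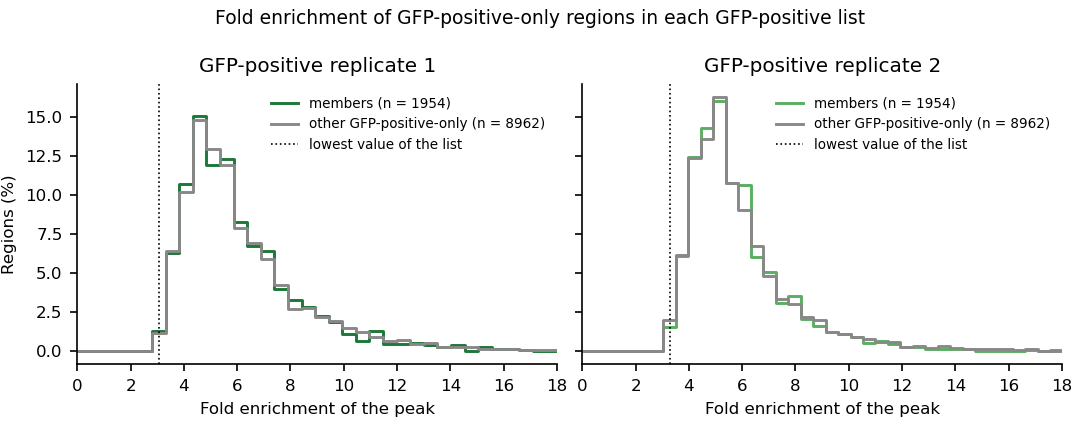
Fold enrichment of GFP-positive-only regions in GFP-positive replicates 1 and 2 (horizontal axis, 1 bin per step of the list, shown up to 18) against the percent of regions (vertical axis), for the 1954 periderm-only flanking regions (members) and the 8962 other GFP-positive-only regions. The dotted line is the lowest value of the list. The outlines nearly coincide, with medians of 5.61 and 5.15 for both kinds of region.

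The 2 GFP-positive libraries ordered the flanking regions only loosely. Across the 1954 regions the percentile of fold in the list correlated between replicates with Pearson's r = 0.37 and Spearman's rho = 0.37, given as a description over regions that share these libraries. Both lists placed 414 regions (21.2%) in their upper 50%, and 26 regions (1.33%) above percentile 80. Among the 8962 other GFP-positive-only regions r was 0.41 and rho was 0.40, so their order was about as loose. Their shares were 22.8% and 2.11%, the latter from 189 regions. The median fold was the same in both kinds of region, 5.61 in replicate 1 and 5.15 in replicate 2. The flanking regions had a median width of 115 bp, with quartiles of 91 and 152 bp and a largest width of 505 bp, against a median of 120 bp for the others. The width rests on merging the peaks of both GFP-positive lists. At these regions the peaks of the single lists had a median width of 90 bp in replicate 1 and 77 bp in replicate 2. The median region width was 63 bp without GFP-positive replicate 1 and 66 bp without GFP-positive replicate 2. Those medians are over other and larger sets (6236 and 23114 regions) that need only 1 GFP-positive call, so they do not isolate the effect of merging. In strength and width, then, the flanking regions were close to the remaining periderm-only NFRs.

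A shared neighbour was not more frequent for periderm-only regions than for regions in general. The flanking regions were 17.9% of the GFP-positive-only regions (95% exact binomial interval 17.2% to 18.6%, which covers counting error over regions only). Of all regions that were not shared, 19.2% had a shared region within 1 kb, and of the regions called in 1 list 17.3% did. Of the GFP-negative-only regions 9726 of 39844 (24.4%) were inside the limit. Which of the 2 shares was the larger depended on the libraries used. With the strongest peaks taken in equal numbers 16.4% of GFP-positive-only and 21.9% of GFP-negative-only regions were inside the limit. Leaving out GFP-negative replicate 1 gave 22.1% and 22.6%, and leaving out GFP-negative replicate 2 turned the order, with 23.4% and 19.8%. Without GFP-positive replicate 1 the shares were 18.4% and 27.3%, and without GFP-positive replicate 2 they were 21.9% and 32.6%. With a library left out, 1 class needs a peak of 1 library and the other of 2, so the rule is not alike for both. The rule used these distances, so the shares were not tested. The number of flanking regions rests on the library set, since each library left out relaxes a requirement. It was 6236 without GFP-positive replicate 1, 23114 without GFP-positive replicate 2, 5053 without GFP-negative replicate 1 and 3970 without GFP-negative replicate 2. Taking the upper 50% of each list left 713 regions.

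The gap between a flanking region and its shared region had a median of 381 bp, with quartiles of 159 and 658 bp. Gaps of 100 to 199 bp were the most frequent, with 337 regions (17.2%). Inside 1 kb that bin held 17.4% of the GFP-negative-only regions and 14.4% of the regions called in 1 list. Under 100 bp lay 250 regions (12.8%), against 18.8% of the GFP-negative-only and 14.4% of the regions called in 1 list that were inside 1 kb. From 200 bp on, each further 100 bp held between 7.01% and 11.0% of the flanking regions. Thus a gap of at least 100 bp separated most flanking regions from the shared NFR, and 1 region touched it. Joining peaks of the same list within 100 bp, still left 1767 regions with a median gap of 415 bp.

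**Figure D3:**
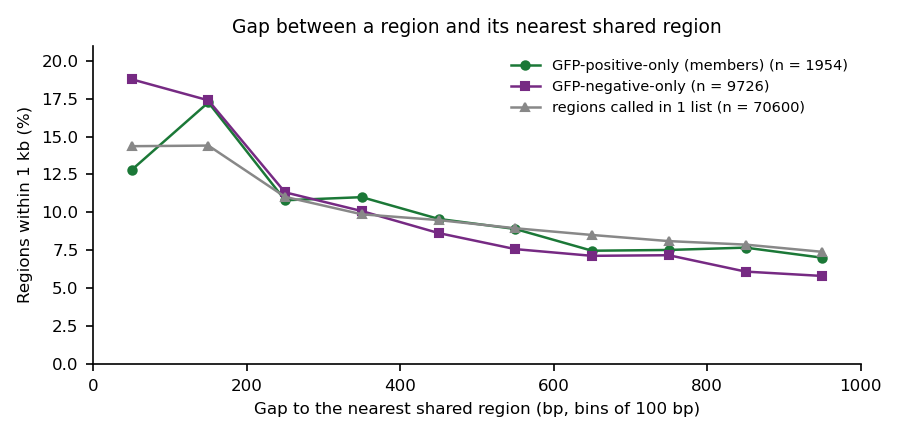
Gap in bp between a region and its nearest shared region, in bins of 100 bp (horizontal axis), as percent of the regions of that kind within 1 kb (vertical axis). The periderm-only flanking regions (green circles, n = 1954) have their highest point at 100 to 199 bp (17.2%). GFP-negative-only regions (purple squares, n = 9726) have theirs under 100 bp (18.8%). Regions called in 1 list (grey triangles, n = 70600) are nearly level there, with 14.36% under 100 bp and 14.40% at 100 to 199 bp.

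The closest pairs with a percentile over 50 in both GFP-positive lists illustrate the short end. On chromosome 7 a region from 77024072 to 77024243 (fold 8.16 and 6.55) lay 1 bp from a shared region with a fold of 13.3 and 5.15 in the GFP-positive and 4.93 and 4.49 in the GFP-negative lists. On chromosome 15 a region from 13956531 to 13956801 (fold 10.2 and 7.49) lay 6 bp from a shared region 2149 bp wide. On chromosome 13 a region from 28928480 to 28928625 (fold 6.12 and 7.49) lay 9 bp from a shared region with a fold of 25.0 and 22.5 in the GFP-positive and 19.3 and 18.8 in the GFP-negative lists. In such pairs, separate NFRs and a single NFR that reaches further in periderm cannot be told apart from the lists.

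At the other end the limit was arbitrary. Just inside it, 994 bp from the shared region, stood a region on chromosome 7 from 72525431 to 72525738 (fold 8.16 and 8.89), and 997 bp away 1 on chromosome 2 from 25582817 to 25582939 (fold 6.12 and 6.55). Just outside, at 1003 bp, stood a region on chromosome 13 from 52230279 to 52230358 (fold 6.12 and 6.55), and at 1002 bp 1 on chromosome 16 from 35587699 to 35587798 (fold 7.65 and 6.55). These are the strongest within 10 bp of the limit. Over all 19 flanking regions in the last 10 bp inside it the median fold was 5.10 and 5.15 in GFP-positive replicates 1 and 2, and over the 17 regions in the 10 bp outside it the medians were 6.12 and 5.62.

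The arrangement around shared regions was simple. The shared region lay at lower coordinates for 953 flanking regions (48.8%) and at higher coordinates for the rest. Each flanking region was counted for its nearest shared region only. So counted, 1917 shared regions had a periderm-only neighbour, of which 1883 had 1, 31 had 2 and 3 had 3, and 14 had neighbours on both sides. Of the flanking regions 176 (9.01%) had a shared region within 1 kb on either side. Nothing else was called between the pair for 1430 flanking regions (73.2%), while for 524 another called region lay between. Since the shared region itself holds peaks of both GFP-negative lists, a GFP-negative peak nearby is largely fixed by the choice. A peak of at least 1 GFP-negative list lay under 100 bp from 424 flanking regions (21.7%), against 250 whose shared region was that near.

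The 3 shared regions with 3 neighbours each showed small periderm-only clusters. On chromosome 16 the neighbours spanned 28938041 to 28938238 with a fold of 18.4 and 12.6, then 28938412 to 28938584 with 6.12 and 4.68, and last 28938687 to 28938821 with 5.10 and 7.96. All 3 were on the same side of a shared region (28937563 to 28937781) with a fold of 8.16 and 12.2 in the GFP-positive and 5.69 and 3.27 in the GFP-negative lists. On chromosome 15, 33998036 to 33998165 had a fold of 10.2 and 5.62, 33998567 to 33998674 had 5.61 and 4.68, and, on the other side of the shared region, 33999938 to 34000114 had 8.67 and 10.8. Another called region, not a periderm-only one, lay between this last region and the shared region. The shared region (33998922 to 33999285) had a fold of 11.7 and 10.8 in the GFP-positive and 5.31 and 8.16 in the GFP-negative lists. On chromosome 10, 32759607 to 32759681 had a fold of 7.14 and 5.62, 32759978 to 32760136 had 6.12 and 8.43, and 32760198 to 32760372 had 6.63 and 6.09. These stood beside a shared region (32760452 to 32760814) with a fold of 9.18 and 6.09 in the GFP-positive and 10.2 and 7.76 in the GFP-negative lists. The shared region was thus higher in both GFP-positive than in both GFP-negative lists, as deposited, on chromosomes 16 and 15 and not on chromosome 10.

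Within periderm the flanking regions were the weaker partner of the pair. The median ratio of the fold of a flanking region to that of its shared region was 0.538 in GFP-positive replicate 1 and 0.625 in replicate 2, a mean of 0.582 ± 0.061 (SD, n = 2). In both lists the flanking region was the higher for 134 of 1954 pairs (6.86%). This ratio is taken within a list and needs no scaling between libraries. A region called in 2 lists is set against 1 called in 4, so a ratio under 1 follows in part from the choice.

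The shared partner itself leaned towards periderm. To compare lists of unequal length, each shared region was ranked by fold among the 110783 shared regions of each list. The 1917 shared regions beside a periderm-only region had a median rank at percentile 53.5 and 53.7 in GFP-positive replicates 1 and 2 and at 41.7 and 41.1 in GFP-negative replicates 1 and 2, where all shared regions have medians of 50.3 to 50.7. In fold as deposited their medians were 10.7 and 8.89 in the GFP-positive and 8.72 and 8.57 in the GFP-negative lists, against 10.2, 8.43, 10.2 and 10.2 for all shared regions. The medians thus lay further from those of all shared regions in the GFP-negative than in the GFP-positive lists.

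Ranked higher in both GFP-positive than in both GFP-negative lists were 711 of the 1917 (37.1%, 95% exact binomial interval 34.9% to 39.3%, counting error only), against 24.7% of all shared regions. Ranked higher in both GFP-negative lists were 326 (17.0%), against 24.5% of all shared regions. Shared regions beside a GFP-negative-only region showed the reverse, with 1828 of 9130 higher in both GFP-positive and 2735 of 9130 (30.0%) higher in both GFP-negative lists. The comparison is between the same groups that chose the regions, so it is a description, and no test was made. The scale decides which side of the split is the larger. With the percentile among all peaks of a list, 15.2% of the flanked shared regions were higher in both GFP-positive and 29.4% in both GFP-negative lists, against 6.58% and 40.5% of all shared regions. On both scales, and with the deposited value (28.0% and 24.4%, against 16.2% and 35.0%), the flanked ones had the higher GFP-positive and the lower GFP-negative share. The difference was smaller with any 1 library left out, and smallest with a single GFP-positive list. With GFP-positive replicate 2 left out, 40.3% of the shared partners ranked higher in the remaining GFP-positive list than in both GFP-negative lists. Of all shared regions 37.1% did. With GFP-positive replicate 1 left out the shares were 45.2% and 39.1%. They were 45.4% and 36.1% without GFP-negative replicate 1, and 46.2% and 36.0% without GFP-negative replicate 2.

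**Figure D4:**
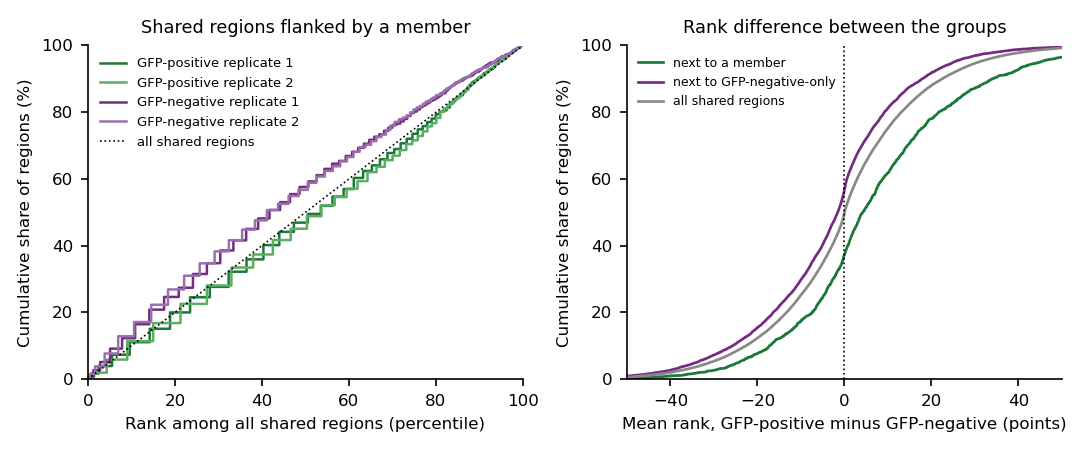
On the left, rank of the 1917 shared regions beside a periderm-only flanking region (member) among all shared regions (horizontal axis, percentile) against the cumulative percent of regions, for each of the 4 lists. The GFP-negative curves run above the dotted line of all shared regions and the GFP-positive curves mostly below it, with medians near 41 and near 54. On the right, mean rank in the GFP-positive minus the GFP-negative lists, as cumulative percent, for shared regions next to a member (n = 1917), next to a GFP-negative-only region (n = 9130) and for all 110783, with medians of 4.18, -1.55 and 0.017 points.

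The lean varied with the gap, and not in 1 direction. Among shared regions whose periderm-only neighbour was at most 100 bp away, 30.6% ranked higher in both GFP-positive lists (n = 255). The share was 37.6% for gaps up to 250 bp (n = 436), 42.2% up to 500 bp (n = 505) and 35.9% up to 1 kb (n = 750). Beyond the limit it was 33.1% between 1 and 2 kb (n = 1276), 30.3% up to 5 kb (n = 2558) and 28.0% between 10 and 20 kb (n = 1640), still above the 24.7% of all shared regions. Between 5 and 10 kb it was 30.1% (n = 2168). The nearest shared region of a periderm-only NFR outside the limit thus leaned the same way. The shares beyond 1 kb were below those for gaps over 100 bp and up to 1 kb. Between 1 and 10 kb they were close to or above the 30.6% for gaps of at most 100 bp, so the lean was not particular to the flanking regions.

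The lean was also larger beside stronger flanking regions. Where the lower of the 2 fold percentiles of the flanking region was at most 20, 32.4% of the 853 shared partners ranked higher in both GFP-positive lists and 179 of them higher in both GFP-negative lists. Between percentiles 40 and 60 the shares were 42.2% and 13.3% (n = 360), and between 60 and 80 they were 47.3% and 6.97% (n = 201). Above percentile 80 they were 69.2% and 3.85% (n = 26). Of the 8 strongest flanking regions 6 had a shared region that ranked higher in both GFP-positive lists, 1 had the reverse (chromosome 1) and 1 was mixed (chromosome 5 from 39323564). Flanking region and partner were measured in the same libraries, and strength was ranked in the GFP-positive lists that enter the rank difference, so the trend is not independent of the choice.

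**Figure D5:**
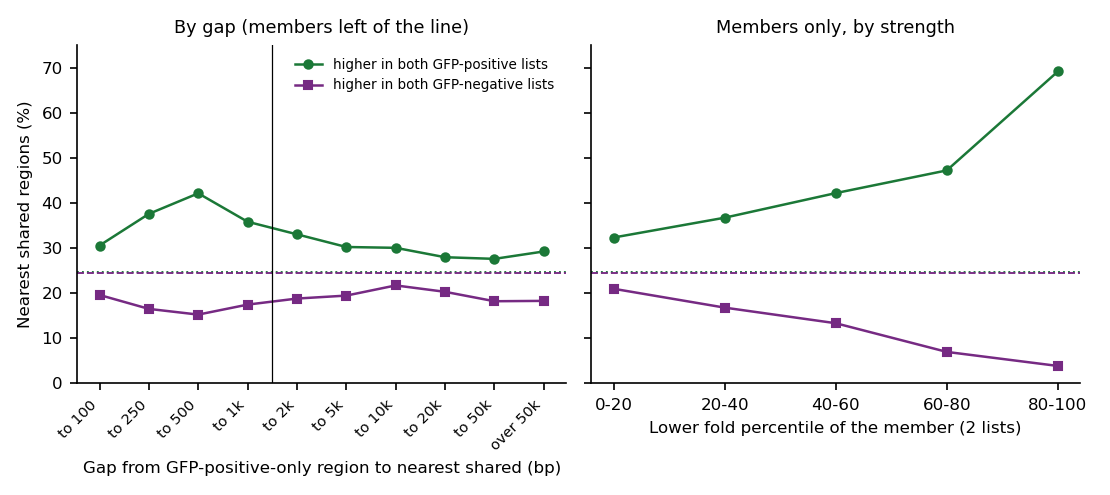
Percent of nearest shared regions (vertical axis) that ranked higher in both GFP-positive lists (green circles) or in both GFP-negative lists (purple squares). On the left, by the gap in bp from the GFP-positive-only region, with the periderm-only flanking regions (members) left of the vertical line; on the right, for members alone, by the lower of their 2 fold percentiles. Dotted and dashed lines mark all shared regions (24.7% and 24.5%). The green points peak at 42.2% for gaps up to 500 bp and go from 32.4% to 69.2% with strength.

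The edges of the shared peak were described on both sides. On the edge facing the neighbour, GFP-positive peaks reached further than GFP-negative peaks by a median of -3 bp (quartiles -25.5 and 16 bp). The minus sign means that they ended slightly short in the median. Edges were not measured over all shared regions, so these values have no background beside them. On the opposite edge the median was -4 bp (quartiles -23.5 and 15 bp). GFP-positive peaks reached further on the facing edge in 45.4% of pairs and on the opposite edge in 42.4%. A peak of either group that reached the neighbour would have merged with it and left no flanking region. The facing edge is thus limited by the choice in both groups, and the difference between the edges was not tested. The merged shared regions were 236 bp wide in the median, both beside a periderm-only neighbour and over all shared regions. The peaks of the single lists differed more. Beside a periderm-only neighbour their median widths were 175 and 141 bp in GFP-positive replicates 1 and 2, against 169 and 135 bp over all shared regions. In GFP-negative replicates 1 and 2 they were 177 and 150 bp, against 191 and 170 bp. These widths were not tested.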

How the data were processed

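ATAC-seq peaks of 2 GFP-positive and 2 GFP-negative libraries were used, grouped and numbered by the labels. The authors trimmed reads with Trimmomatic, aligned them with Bowtie2, removed duplicates with SAMtools, kept fragments under 100 bp and called peaks in each library with MACS2 2.1.1 (tag extension 54 bp, no local background). The deposited value of each peak is unnamed and was read as a ratio, the fold enrichment from the authors' peak caller, since all values were whole multiples of 1 step per list (tolerance 0.02 steps). The processing notes name danRer10 and the study's methods danRer7. Positions were read as danRer7, because the cldne elements given for that build held peaks. The shortest peaks measured 54 bp, the tag extension, when starts were counted from 1, so starts were read that way.

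Per region and list the highest fold was taken. Regions named are the 8 with the highest lower percentile in the GFP-positive lists, the shared regions with the most neighbours, the 3 smallest gaps with both percentiles over 50, and pairs within 10 bp of the limit. Regions, lists and measures were chosen with earlier results of these data known. The study's DiffBind test needs reads, which were not used here, and no test was made. The merging recovered all 200 members put into simulated lists. Those members had equal edges in both GFP-positive lists and lay beside isolated shared regions. The recovery therefore checks the calculation only, and not the merging of dense lists with uneven edges. Python 3.11.15 was used with pandas 2.3.3, numpy 2.4.6, matplotlib 3.10.9 and scipy 1.17.1.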

Additional observations from a re-analysis of the deposited data

How the results depend on the processing

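No paired analysis was possible because the labels do not tie a replicate number to an incross. Both groups were sorted at each incross, and no test was made. As a description added after seeing the data, with ranks compared within each replicate number, as in a replicate block, 44.2% of shared partners were higher in GFP-positive lists for both numbers (31.7% of all shared regions). Reading starts from 0 was also chosen after seeing the data. It gave 1951 flanking regions, a number for which no interval was set. The other results stayed within their intervals, which for the ratio was 1 SD either way. The ratio of the fold of a flanking region to that of its shared region stayed within 1 SD in all 14 alternatives.

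The upper 50% of each list gave 713 flanking regions (13.3% of GFP-positive-only regions), 43.7% of shared partners higher in both GFP-positive lists (25.8% of all shared regions), 18.3% of GFP-negative-only regions within the limit and a median width of 146 bp. Equal numbers of peaks gave 16.4%, a median gap of 356 bp, 21.9% and 130 bp. An overlap of 50% of the shorter interval gave a gap of 359 bp. A fixed width of 200 bp gave 19.8%, a gap of 299 bp, 33.0% of partners higher in GFP-positive lists (24.7% of all), 23.4% and 220 bp. Joining peaks within 100 bp gave 16.8%, 415 bp and 21.6%. A limit of 500 bp gave 1200 regions, 11.0%, 204.5 bp and 16.2%, and a limit of 2 kb gave 3248 regions, 29.8%, 768 bp and 36.0%. Centres in place of edges gave 15.3%, 515.5 bp and 21.03%. Ranks in the whole list gave 15.2% and the deposited value 28.0% of partners higher in GFP-positive lists.

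Leaving out each library gave 3970 to 23114 flanking regions, 18.4% to 23.4% of GFP-positive-only regions, gaps of 345 to 385 bp, 40.3% to 46.2% of partners higher in the GFP-positive lists that remained, ratios of 0.60 to 0.64, 19.8% to 32.6% of GFP-negative-only regions and widths of 63 to 120 bp. With 3 lists such a rank order is more frequent by construction. Without GFP-positive replicates 1 and 2 it held for 39.1% and 37.1% of all shared regions (45.2% and 40.3% of partners), and without GFP-negative replicates 1 and 2 for 36.1% and 36.0% (45.4% and 46.2%). Without GFP-positive replicate 2, the shortest list, the difference was the smallest. The lists give no read counts, so an effect of depth on the calls was not tested. Absence of a peak means absence of a call.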

Other observations

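The periderm-only flanking regions were spread over all 25 chromosomes, with 48 (chromosome 25) to 113 (chromosome 4) on each. As a share of the GFP-positive-only regions of the chromosome they were most frequent on chromosome 21, with 85 of 343 (24.8%, 95% exact binomial interval 20.3% to 29.7%), and least frequent on chromosome 20, with 70 of 509 (13.8%, interval 10.9% to 17.1%). Chromosomes 11 (22.5%), 4 (21.9%) and 10 (21.1%) followed chromosome 21. These chromosomes were singled out after their values were seen, and no test was made. Per 1000 shared regions, chromosome 4 had the most flanking regions (24.5) and chromosome 18 the fewest (14.6).

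Flanking regions lay in denser surroundings than the other periderm-only NFRs, as nearness to a shared region implies. Within 10 kb they had a median of 13 called regions, 3 of them shared, against 10 and 1. Another GFP-positive-only region stood within 10 kb of 487 flanking regions (24.9%) and of 22.7% of the others. A GFP-negative-only region stood that near to 859 flanking regions (44.0%) and to 39.5% of the others. Of the 1917 shared partners 122 (6.36%) were also the nearest shared region of a GFP-negative-only region within 1 kb. The same held for 9130 of all 110783 shared regions, a somewhat larger share. Of the 122, 40 ranked higher in both GFP-positive and 22 higher in both GFP-negative lists.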
